A study of Oryza sativa with 2 samples.

Results

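EGY2, EGY3, CLPD1 and FTSH3 are rice genes of chloroplast-type protease families, and they are described here on 2 arrays of leaf RNA. They were taken as every probe set whose only annotated gene carries one of these names as symbol or synonym, with a leading Os dropped. This gave 4 genes, each read by 1 probe set, of 17905 genes that have a probe set of their own. The 4 genes were chosen by their differences between these arrays in an earlier look at the data, so those differences are a description and carry no test.

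The yellow leaf tip array read leaf RNA of F9Y recombinant inbred lines, labelled mutant, with yellowing tips in the vegetative stage. The green array read leaf RNA of F9G lines, labelled normal green, with green leaf tips. Recombinant inbred lines are fixed by inbreeding after a cross, and the series is about SA0420, a rice mutant that senesces early. The study compared the groups to follow what happens at the molecular level when leaf tips turn yellow. The sources used here do not give the parents or the number of plants behind each RNA. The sample titles speak of leaves and the descriptions of leaf tips, so the part taken is not settled, and "yellow leaf tips" and "green leaves" serve below only as names of the groups. The groups differed in line (F9Y against F9G) and in leaf tip colour together, so these cannot be told apart. Each group had 1 array (n = 1), so a difference is one between these arrays and has no replicate check.

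Chloroplasts take apart their own proteins with proteases inherited from bacteria. EGY proteins belong to the site-2 proteases, which cut within membranes. In Arabidopsis, loss of EGY1 gives yellow-green leaves, and EGY3 is regarded as lacking protease activity because its zinc-binding motif is missing. CLPC and CLPD are chaperones of the HSP100 family that unfold proteins in the stroma and feed them to the Clp protease core. The Arabidopsis CLPD gene is also known as ERD1 and was found through its response to drying and senescence. FTSH proteins are membrane-bound, ATP-driven zinc proteases. In Arabidopsis, one group of them sits in thylakoids and removes damaged photosystem II protein, and others sit in mitochondria. FTSH3 of Arabidopsis is a mitochondrial protein, and the files do not give the compartment of the rice gene, so its place among chloroplast genes rests on its family name.

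EGY3 and CLPD1 had much higher signals in yellow leaf tips, while EGY2 and FTSH3 had somewhat lower ones. Signals are the deposited intensities on a linear scale. The log2 difference is yellow leaf tip minus green, taken after a pseudocount of 22.6 was added to each signal and centred on the median of all kept probe sets. Folds on this scale understate the difference of dim genes. Genes counted as higher or lower are those whose difference reached 1 in either direction, which is 2-fold. By this rule 819 of 14697 kept genes (5.57%) were higher with yellow leaf tips and 468 (3.18%) were lower. For kept probe sets the shares were 5.82% higher and 6.29% lower, so 48.1% of these calls were higher. This balance depended on the scaling, with 42.8% without centring, 54.3% after quantile normalization and 59.4% after loess. It also differed with signal. Of 5 equal signal classes, the dimmest had 9.15% of probe sets higher and 17.7% lower, and the brightest had 3.62% higher and 1.90% lower. Of the 4 genes, all of which passed the filter on low values, 2 were higher and none was lower, and nothing is read from this count because it chose them. In leaf RNA, fewer cells of a type and less RNA per cell cannot be told apart.

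**Figure D1:**
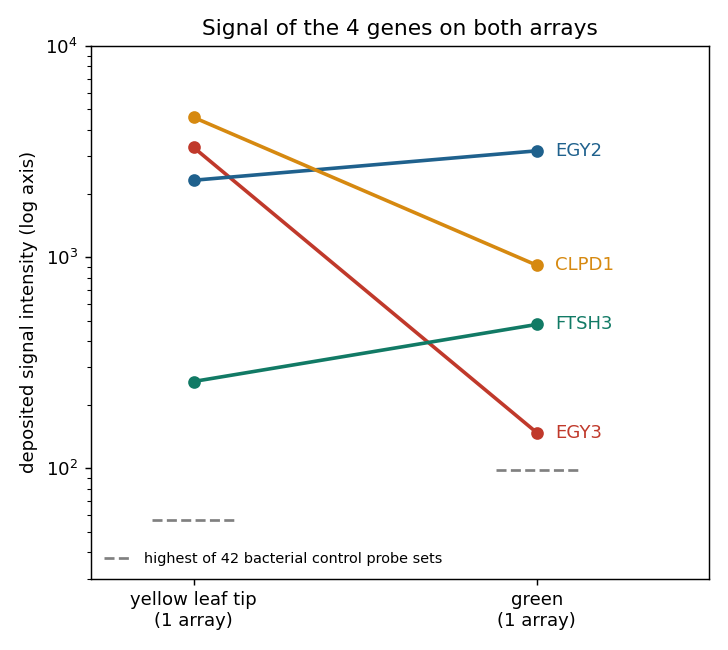
Deposited signal intensity (log axis) of the 4 genes, with the yellow leaf tip array on the left and the green array on the right (1 array each); dashed marks show the highest of 42 bacterial control probe sets on each array. EGY3 and CLPD1 lie higher in yellow leaf tips, EGY2 and FTSH3 lie lower, and EGY3 on the green array is the point closest to the controls.

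EGY3, the EGY family member without the usual protease motif in Arabidopsis, read 3308 in yellow leaf tips, against 147 in green leaves. Its log2 difference was 4.34, a fold of 20.3, and the plain ratio of the signals was 22.5. Only 4 of the 14697 kept genes had a higher difference, and among the 2050 kept genes with a name EGY3 ranked second. The green signal was low but measured: it was 1.51 times the highest of the 42 bacterial control probe sets on that array, which reached 97.6. The yellow leaf tip signal was 58.2 times the highest control of its own array, 56.9. Within the arrays the probe set of EGY3 stood at the 94.6th percentile of rice probe sets in yellow leaf tips, against the 58.9th in green leaves, a comparison that does not depend on how the arrays were scaled.

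EGY2, which encodes a thylakoid membrane protease in Arabidopsis, read 2311 in yellow leaf tips, against 3186 in green leaves. Its log2 difference was -0.41, a fold of 0.753, and its percentile was 92.3 in yellow leaf tips, against 94.5 in green leaves. The third gene of the family, EGY1, had 7492 in yellow leaf tips, against 8587 in green leaves, a log2 difference of -0.15. Of the EGY genes only EGY3 passed 2-fold, under all the ways of processing tried, and the difference of EGY3 exceeded that of EGY1 by 4.49 on the log2 scale. This gap was 4.04 to 4.69 over the other ways of processing.

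CLPD1 read 4590 in yellow leaf tips, against 914 in green leaves. Its log2 difference was 2.35, a fold of 5.10, which ranked it 86th of the kept genes from the highest. Both signals were well clear of the bacterial controls, at 80.7 times the highest of them in yellow leaf tips, against 9.37 times in green leaves. The second CLPD gene, CLPD2, went the other way by a small amount, with 897 in yellow leaf tips, against 1229 in green leaves (log2 difference -0.39). The difference of CLPD1 exceeded that of CLPD2 by 2.74, and by 2.64 to 2.78 over the other ways of processing. The CLPC genes, named after their values were seen, encode the main stromal partners of the Clp core, and they stayed close to 0. CLPC1 had 23900 in yellow leaf tips, against 21810 in green leaves (0.18), and CLPC2 had 24645 in yellow leaf tips, against 23750 in green leaves (0.10). CLPC3 was dim on both arrays, with 108 in yellow leaf tips, against 122 in green leaves, and its difference of -0.10 had no settled sign, since it was 0.06 after quantile normalization and 0.12 after loess.

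FTSH3 read 257 in yellow leaf tips, against 479.7 in green leaves. Its log2 difference was -0.79, a fold of 0.577, so it was below the green level by less than 2-fold. Its percentile was 68.7 in yellow leaf tips, against 76.2 in green leaves, and the signals were 4.53 times the highest bacterial control in yellow leaf tips, against 4.92 times in green leaves. FTSH3 had the lowest difference of the 9 FTSH genes.

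The FTSH gene with the highest difference was FTSH6, whose Arabidopsis counterpart is a plastid protease studied in senescence and heat. The mean signal of its probe sets was 422 in yellow leaf tips, against 137 in green leaves, a log2 difference of 1.52. Its 2 probe sets gave 1.86 and 1.18, and the lower value came from a probe set that may cross-hybridize. In green leaves FTSH6 was only 1.41 times the highest bacterial control. FTSH1 and FTSH2, named after their values were seen, were bright and nearly level. FTSH1 had 12926 in yellow leaf tips, against 13514 in green leaves (-0.01, and 0.08 after quantile normalization and after loess), and FTSH2 had 26628 in yellow leaf tips, against 25687 in green leaves (0.10). FTSH4 had 1094 in yellow leaf tips, against 811 in green leaves (0.47). FTSH5, FTSH7, FTSH8 and FTSH9, also named after their values were seen, had log2 differences of 0.29, -0.06, -0.06 and 0.44.

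Across the wider list of EGY, Clp, FTSH and glutamyl endopeptidase (GEP) genes, 18 of 19 had a measured value. The names CLPR, CLPT, CLPS, CLPF, CLPX, FTSHI, DEG, SPPA, PREP, LON and CTPA were also sought, and no gene carried them in the form sought. The measured Clp genes were CLPC and CLPD genes only, so the list does not cover all chloroplast proteases. The plastid-encoded gene clpP, for a core subunit of the Clp protease, had no probe set in the annotation used. Of the 18 genes, 3 were at least 2-fold higher in yellow leaf tips (EGY3, CLPD1 and FTSH6) and none was lower, against 5.57% higher and 3.18% lower among all kept genes. The list holds the 4 genes chosen by their differences. Without them 1 of 14 was higher, or 7.14%, which is near the background. The median of the list was 0.10, and the median of all kept genes was 0.08. Within 0.5 of 0 lay 14 of the 18 genes, GEP among them (named after its value was seen) with 9378 in yellow leaf tips, against 8224 in green leaves (0.24). Each of the EGY, CLPC and CLPD, and FTSH families had 1 gene above 2-fold. The other 2, 4 and 8 measured genes of these families were within 2-fold. Because EGY3 and CLPD1 were chosen by their differences, nothing about the families is read from this pattern.

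**Figure D2:**
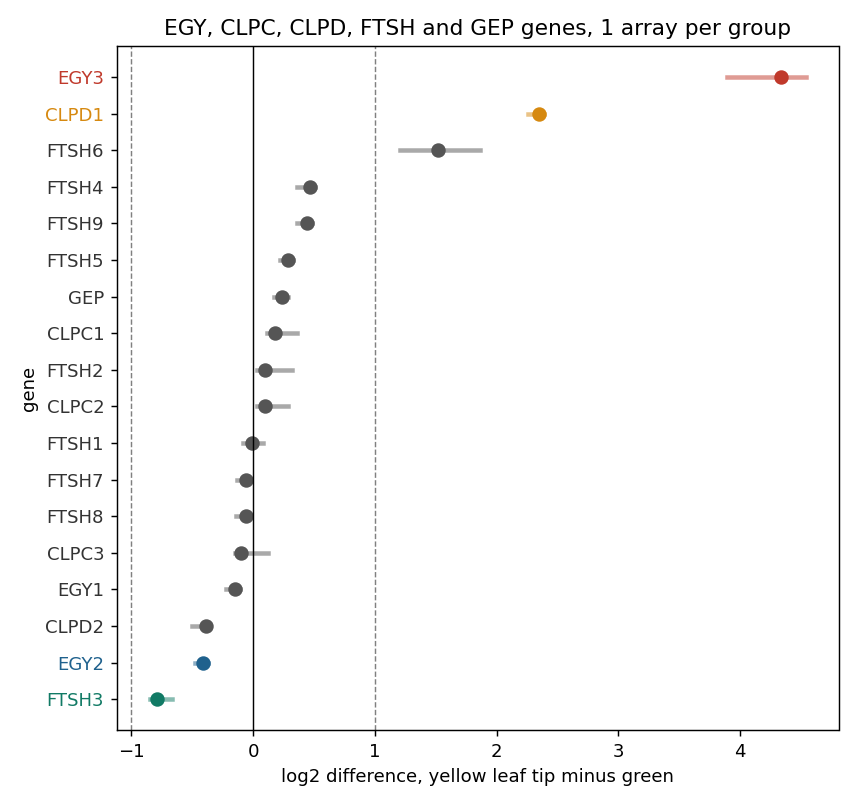
Log2 difference, yellow leaf tip minus green, of the 18 measured genes of the protease list (1 array per group), highest at the top; points are the reported values, bars run from the lowest to the highest value over the reported and 9 other ways of processing, and dashed lines mark 2-fold. EGY3 (4.34), CLPD1 (2.35) and FTSH6 (1.52) lie beyond the upper line, and the other 15 genes lie between the lines.

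The only error the arrays allow is the disagreement between probe sets of the same gene, which does not cover plants, extractions or arrays. The pooled SD of such differences was 0.46 over 2215 genes, and it was smaller for brighter probe sets. When kept probe sets were divided into 5 equal classes by the mean log2 signal of both arrays, it was 0.849 in the dimmest class and 0.219 in the brightest. The SD of a class rests only on genes with several probe sets in that class, 75 in the dimmest, 196 in the second brightest and 309 in the brightest. Genes whose probe sets fell in different classes were left out, which can make these SDs smaller and the multiples below larger. EGY3 lay in the second brightest class, where the SD was 0.301 and 4.61% of probe sets were higher by at least 2-fold. Its difference was 14.4 times that SD, and 4 of the 5726 probe sets of the class, itself included, lay as high. CLPD1 lay in the brightest class, with a difference of 10.7 times the SD, and 13 of 5726 probe sets, again itself included, lay as high. Because EGY3 and CLPD1 were chosen by these same differences, their places far out describe the choice and add no support. These classes depend on the high yellow leaf tip signals themselves: placed by the green signal alone, a step added after the values were seen, EGY3 fell in the second dimmest class (SD 0.517) with a difference of 8.40 times the SD, and CLPD1 in the second brightest with 7.81 times.

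The lower differences were less far out. EGY2, also in the brightest class, differed by 1.87 times the SD, and 16.6% of that class were as low. FTSH3 lay in the middle class, where the SD was 0.367, differed by 2.16 times that SD, and 6.03% of the class were as low. A difference as low as that of EGY2 was therefore common among probe sets of like signal, and none of these comparisons is a test.

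**Figure D3:**
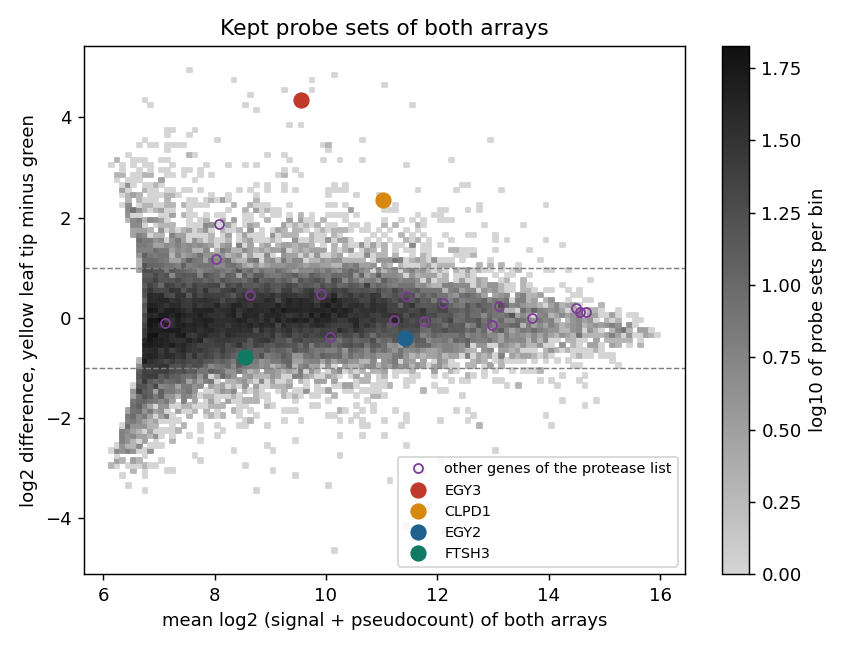
Log2 difference, yellow leaf tip minus green, against the mean log2 signal of both arrays for 28629 kept probe sets (grey, darker where more probe sets fall in a bin), with the 4 genes in colour and the other genes of the protease list as open circles; dashed lines mark 2-fold. EGY3 and CLPD1 lie at the upper edge of the cloud, while EGY2 and FTSH3 lie inside it.

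The named genes whose signals were most like those of each gene were sought by the distance between log2 signals on the 2 arrays, over 2049 genes. With 2 arrays this finds genes that share a level and a difference, and levels of different probe sets are not strictly comparable. How many genes lay within a given distance was not counted. The closest to EGY3 was SWEET15, a sugar efflux transporter gene, at a distance of 0.380, with 4291 in yellow leaf tips, against 139 in green leaves. The peroxygenase gene PXG (0.931) and the metallothionein gene MT1B (1.041) followed. CLPD1 was closest to ML (0.344), to the glutaredoxin gene GRXC7 (0.469) and to BURP3 (0.549). ML had 3664 in yellow leaf tips, against 885 in green leaves, on 2 probe sets. EGY2 and FTSH3 had nearest genes at smaller distances. The nearest to EGY2 were CL27, SNAT2 and UPD1, at distances of 0.005, 0.096 and 0.123. The mean signals of CL27 over 3 probe sets were 3058 in yellow leaf tips, against 4573 in green leaves, both above those of EGY2 (2311 and 3186). Its small distance comes from averaging log2 signals over its probe sets and does not mean equal signals. The nearest to FTSH3 were the metallothionein gene MT-1-4b, the kinesin gene KIN14O and CBF3, at 0.013, 0.063 and 0.077.

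Genes beside the 4 genes on the chromosome were also read. Neighbours were taken from the order of genes in RefSeq, 2 measured genes on each side, a step added after the values were seen. Of the 16 neighbours, 1 was higher by at least 2-fold and none was lower, which is near the 5.57% higher and 3.18% lower among all kept genes, and their median difference was 0.06. Around EGY3 the neighbours ran from -0.26 to 0.58, around CLPD1 from -0.20 to 0.50 and around EGY2 from -0.16 to 0.24. Around FTSH3, itself at -0.79, they ran from -0.94 to 1.71. The lowest of them was LOC4327507, with 68.8 in yellow leaf tips, against 159 in green leaves, and the highest was LOC4327501, with 784 in yellow leaf tips, against 232 in green leaves. Some measured neighbours had unmeasured genes between them and the gene itself.

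**Figure D4:**
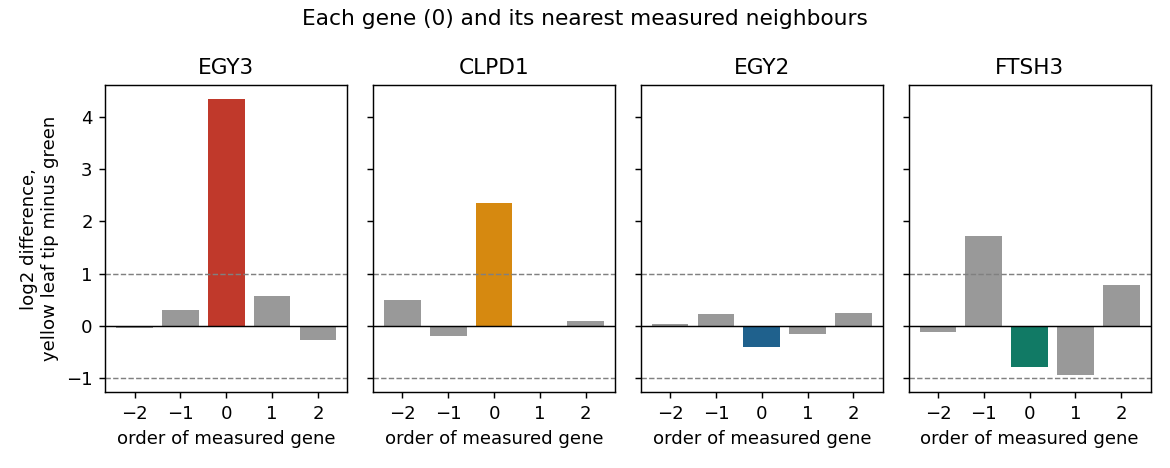
Log2 difference, yellow leaf tip minus green (1 array per group), of each of the 4 genes (position 0, coloured) and of the 2 nearest measured genes on each side in RefSeq gene order (grey); dashed lines mark 2-fold. The neighbours of EGY3, CLPD1 and EGY2 lie within 2-fold, and 1 neighbour of FTSH3 lies above it at 1.71.

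CLPD belongs to the same HSP100 family as the CLPB chaperones, which pull apart protein clumps after heat. CLPB3, also listed as CLPB-M, had 231 in yellow leaf tips, against 143 in green leaves (0.66). CLPB2, listed as CLPB-C, had 3914 in yellow leaf tips, against 3562 in green leaves (0.19), and CLPB1, also listed as hsp101, had 149 in yellow leaf tips, against 182 in green leaves (-0.20). None reached the 2-fold that CLPD1 passed. Of the 37 measured (51 listed) CLPB, heat shock protein and heat shock factor genes, none was higher by at least 2-fold and 1 was lower (2.70%), against 5.57% higher and 3.18% lower among all kept genes, and the median was 0.05, against 0.08 for all kept genes. The lower one was the heat shock factor gene HSF11 (-1.14), named after its value was seen, on 1 kept probe set of 3 whose yellow leaf tip signal of 55.3 was within the range of the bacterial controls.

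Both arrays read leaf RNA by their markers. The 14 probe sets of 6 leaf genes, for Rubisco, Rubisco activase, photosystem I and the light-harvesting complex, had a median signal of 17798 in yellow leaf tips, against 21924 in green leaves, and they summed to 262709 in yellow leaf tips, against 334180 in green leaves. Of these probe sets, 1 in yellow leaf tips, against 2 in green leaves, did not exceed the highest bacterial control. Seed and anther genes, which leaf should lack, had a median of 25.4 in yellow leaf tips, against 87.0 in green leaves over 9 probe sets, which summed to 1115 in yellow leaf tips, against 1857 in green leaves, and 5 of the 9 were within the range of the bacterial controls on each array. GLUA-2 reached 822 in yellow leaf tips, against 1186 in green leaves. The ratio of the signal at the 3′ end to that at the 5′ end of control transcripts, a sign of RNA quality, was 4.81 in yellow leaf tips, against 3.98 in green leaves for actin, and 4.23 in yellow leaf tips, against 11.5 in green leaves for GAPDH. For elongation factor 1α it was 0.831 in yellow leaf tips, against 0.101 in green leaves. The part of these differences in the values of the 4 genes was not tested.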

How the data were processed

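Biotinylated cRNA from 2 leaf RNA samples was hybridised to 1 single-colour array each, per the labels' protocols. The deposited table gives 1 linear signal intensity per array for each of 57381 probe sets. The software and scaling of the authors are not stated in the labels, but the mean after leaving out the lowest and highest 2% was 500.1 on each array. With Python 3.11.15, numpy 2.4.6, pandas 2.3.3 and statsmodels 0.14.6, 123 control probe sets were left out, a pseudocount of 22.6 (25th percentile of all values) was added, and probe sets with a mean signal of at least 86.0 (the median) were kept, 28629 in all. The log2 difference was centred on its median, a shift of -0.05. The value of a gene is the mean over its kept probe sets. Genes came from the platform annotation, in which 22436 probe sets have 1 gene and 95 have several. All 17905 genes matched the RefSeq table of assembly ASM3414082v1 by identifier, used for names and gene order only.

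With 1 array per group no test was made, and precision is limited by the number of arrays. The steps recovered known folds put into bright probe sets of data simulated from the green array, with noise of a preset size. EGY3, CLPD1 and FTSH3 were dimmer in green leaves than those probe sets, so the simulation does not cover signals like theirs. The genes and lists were chosen with earlier results of these data known. Named are the 4 genes, the 4 highest and 4 lowest of the protease list and the 3 named genes nearest to each of the 4 genes, and others where said. Alternatives were no centring, quantile normalization, loess on signal (fraction 0.3), a pseudocount of 0 or at the 50th percentile, filtering nothing or at the 75th percentile, dropping the probe sets whose names (_x_at, _s_at) mark possible cross-hybridization, taking for each gene its brightest probe set, and a log2 threshold of 2. Protein and promoter sequences, part of the plan, were not used here.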

Additional observations from a re-analysis of the deposited data

How the results depend on the processing

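EGY3 (3.89 to 4.54), CLPD1 (2.26 to 2.39), EGY2 (-0.48 to -0.37) and FTSH3 (-0.85 to -0.67) kept their sign and their side of 2-fold under the alternatives that gave a value. FTSH3 was not measured with the filter at the 75th percentile, which kept 15 genes of the protease list, FTSH6 not among them. The list then had 2 higher genes in place of 3, as it also had at a log2 threshold of 2, and no gene was lower under any alternative. The median of the list ran from 0.03 to 0.27. Small differences turned sign: FTSH1 had 0.08 after quantile normalization, 0.08 after loess and 0.02 without a filter, and CLPC3 had 0.06 after quantile normalization and 0.12 after loess. Counts over all kept probe sets, 1665 higher and 1800 lower, moved more: 1100 higher and 863 lower with the pseudocount at the 50th percentile, 5333 higher and 5478 lower without a filter, 582 higher and 433 lower when filtered at the 75th percentile, and 312 higher and 261 lower at a log2 threshold of 2. Both filters change by construction how many probe sets are counted. A larger pseudocount also lowers the counts by construction, since it shrinks log2 differences, most of all for dim probe sets. No paired analysis was possible because each group had 1 array. Higher probe sets, the smaller count as reported, were also the larger count after quantile normalization (1822 higher and 1531 lower) and loess (1936 higher and 1323 lower). Without centring they stayed the smaller count (1515 higher and 2021 lower). The green signal of EGY3, 1.51 times the highest bacterial control, limits how exactly its fold is known.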
